A study of Schizosaccharomyces pombe with 7 samples.

Results

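Fft3 was mapped on the genome of the fission yeast Schizosaccharomyces pombe as a GFP fusion, on 1 of the 7 arrays of the study. All 41551 probes of that array on the yeast contigs were taken, whatever their value, and 41549 were kept: 1 probe was flagged as non-uniform and 1 was not well above background in the whole-cell extract. Chromatin immunoprecipitation (ChIP) DNA was labelled with Cy5 and whole-cell extract DNA with Cy3, and each value given below is log2(ChIP/extract) minus the median of the array, so that 0 is the typical probe and 1 is 2-fold above it.

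The cells of the Fft3-GFP array are labelled WT apart from the tag. They grew in rich medium (YEA), stood at 18 °C for 6 h, were fixed with 3% paraformaldehyde and then treated with 10 mM dimethyl adipimidate, a protein crosslinker. The H3K9me2 arrays used beside it came from log-phase cells fixed at 30 °C with 3% paraformaldehyde alone, from 3 WT samples and 2 samples with fft3 deleted (fft3∆). The H3K9me2 arrays thus differ from the Fft3-GFP array in temperature, in crosslinker and in antibody. The Fft3-GFP array has no replicate and no untagged strain beside it, so no test was made on its values, and the part of any value that cells without the tag would also give cannot be told apart from Fft3-GFP. Nothing in the labels says whether the H3K9me2 samples are separate cultures, so p-values on them measure the spread between these samples.

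Fft3 is a chromatin remodeller of the Fun30 branch of the Snf2 ATPase family. Enzymes of this family use ATP to move, exchange or hold nucleosomes. In fission yeast, heterochromatin carries H3K9me2, the mark written by the methyltransferase Clr4, and covers the repeats beside the centromeres, the subtelomeres and the silent mating-type region, while the central domains of the centromeres hold the centromeric histone Cnp1 in place of most H3. The title of the study names nucleosome turnover, inheritance of heterochromatin and replication as its subjects.

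The 12 probes in fft3 checked the labels. In extract DNA of the Fft3-GFP array their median was 82.7% of the array median, and none fell under 10% of it. On both fft3∆ arrays 10 of the 12 fell under 10%, with medians of 0.298% and 0.379%, and none of the 10 probes beside the gene did. The median signal of the Fft3-GFP array was 59.4 times background in Cy3 and 86.8 times in Cy5, with no saturated spot. Signal over background does not show how specific a probe is. The lack of a replicate and of an untagged strain limits what can be said.

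Among the sequences under the highest chromosomal signal were tRNA genes, short genes read by RNA polymerase III from promoter elements inside the gene. The B box is the inner element bound by TFIIIC. The first pair of genes below lies under the peaks at the borders of centromere 2, the next under the highest tRNA peak on an arm, and the last is the innermost tRNA gene left of the central domain of centromere 2. They are printed 5′ to 3′ from RefSeq (ASM294v3), with matches to the B-box letters GTTCGANNC in capitals.
SPBTRNAGLY.07: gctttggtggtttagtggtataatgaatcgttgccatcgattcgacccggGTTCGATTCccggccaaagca
SPBTRNAALA.11: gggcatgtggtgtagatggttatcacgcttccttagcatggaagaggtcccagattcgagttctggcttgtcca
SPBTRNAPRO.07: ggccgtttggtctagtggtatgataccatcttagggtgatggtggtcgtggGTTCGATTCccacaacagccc
SPBTRNAVAL.06: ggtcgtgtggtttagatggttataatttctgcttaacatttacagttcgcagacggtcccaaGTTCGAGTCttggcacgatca
These sequences recur: 8, 9, 6 and 8 tRNA genes of the assembly have exactly the sequence of SPBTRNAGLY.07, SPBTRNAALA.11, SPBTRNAPRO.07 and SPBTRNAVAL.06 in turn. The innermost flanking pair compared at each centromere was identical, SPATRNAGLU.03 and SPATRNAGLU.04 over 72 of 72 bases, SPBTRNAVAL.06 and SPBTRNAVAL.07 over 83 of 83, and SPCTRNATHR.08 and SPCTRNATHR.09 over 72 of 72. A probe inside such a gene therefore cannot tell copies apart, and a value there rests on the unique sequence around it.

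High Fft3-GFP values were few and lay in short stretches. Of all kept probes, 357 (0.859%) were at 2-fold or more, the 99th percentile was 0.96 and the highest probe 2.19. The same percentile on the 3 WT H3K9me2 arrays lay between 5.43 and 6.31, so the range of Fft3-GFP was much narrower. Its robust SD (from the median absolute deviation) was 0.24. On the arms, values at probes 300 bp apart correlated at r = 0.73 over 39398 pairs, at 0.9 kb at 0.45, at 1.5 kb at 0.28 and at 3 kb at 0.09. These correlations are descriptions of neighbouring probes, which share DNA fragments of 500 to 1000 bp.

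A peak was a run of at least 3 consecutive probes that were all at 2-fold or more. There were 37 peaks, 16 on chromosome arms, 9 elsewhere on the chromosomes and 12 on the separate contigs of the array. They covered 60.1 kb in all. Their median width was 960 bp (quartiles 660 and 1860, range 660 to 5760 bp), and their median height 1.36. The lowest peak reached 1.05, and the 3 highest runs just outside the threshold reached 0.997, 0.993 and 0.992. A further 28 runs of 2 probes and 101 single probes were at 2-fold or more. At 1.5-fold the count was 216 peaks with a median width of 1260 bp, of which 158 were on arms.

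Peaks were far apart. Along the chromosomes the median distance between neighbouring summits was 190 kb (22 distances, quartiles 95.5 and 395, range 5.4 to 1863 kb). At 1.5-fold it was 36 kb (199 distances, quartiles 10.1 and 81.5), and 27 distances were under 5 kb. Arm peaks at 1.5-fold stood 46.5 kb apart, and those outside the arms 9.30 kb. The median profile around the 16 arm summits fell from 1.26 at the summit to 0.74 at 0.9 kb, 0.37 at 1.5 kb and 0.12 at 2.1 kb. WT H3K9me2 over the same probes was −0.34 at the summit and between −0.29 and 0.09 at the other distances up to 4.5 kb.

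Many of the highest values came from probes whose names carry an f or m mark, for which the sources used here give no definition. The median was −0.01 over 39791 unmarked probes, 0.26 over 1173 probes marked f and 0.73 over 524 marked m. Marked probes make up 1.84% of the arms, 82.9% of the pericentromeric repeats and all 129 probes of the contigs named pNSU. With unmarked probes alone, an alternative chosen after the data were seen, 13 peaks were left, the median of the pericentromeric repeats was 0.65 and that of the central domains −1.05.

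The highest Fft3-GFP of all was on the 9 pNSU contigs, separate sequences whose place on the chromosomes the files do not give. Their median was 1.28 (quartiles 0.71 and 1.46), 2.42-fold above the array median, and 91 of 129 probes (70.5%) were at 2-fold or more. Of the 37 peaks, 11 lay here, with pNSU65 (array positions 3601 to 7560) reaching 2.19, pNSU77 (8101 to 10860) 1.98 and pNSU21 (3601 to 7860) 1.88. The widest was pNSU64, where all 14 probes from position 1 to 5760 were at 2-fold or more. The contigs were not alike: pNSU21, pNSU28, pNSU32, pNSU64, pNSU65 and pNSU70 had medians from 1.29 to 1.498, whereas pNSU71 had 0.06, pNSU68 0.59 over 2 probes and pNSU77 1.06. On pNSU71 1 stretch (1801 to 5460) reached 1.58 and 8 of its 29 probes were at 2-fold or more. Extract DNA was itself abundant over these contigs, with a Cy3 median 1.74 above the array median on the log2 scale and a Cy5 median 2.90 above.

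The repeats on both sides of the centromeres were the next highest. Each pericentromere was taken as the sequence between the nearest protein-coding genes, without the central domain. The Fft3-GFP median was 0.82 at centromere 1 (68 probes), 0.89 at centromere 2 (77) and 0.85 at centromere 3 (113). These levels differed by less than their quartile ranges, and 68 of the 258 probes (26.4%) were at 2-fold or more. WT H3K9me2 over the same 3 stretches was 6.65 ± 0.16, 5.41 ± 0.30 and 6.42 ± 0.12 (mean over probes, SD, n = 3 arrays). At 1.5-fold the longest peak of the genome lay here, 11160 bp of repeats at the left of centromere 3 (1068901 to 1080060) with a height of 1.14.

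The central domains went the other way. Their medians were −0.84 (37 probes), −1.01 (31) and −0.68 (34), and 33 of the 102 probes were at −1 or less. At least 1 kb inside the borders the medians were −0.90, −1.03 and −0.76. Only 5 runs of 3 or more probes in the genome were at −1 or less: 2 in central domain 2, 2 in central domain 3 and the mitochondrial contig. The deepest of the 4 was at 1622701 to 1625160 on chromosome 2, with a lowest probe of −1.46. Over all 102 probes of the central domains the Cy5 median was −1.73 and the Cy3 median −0.99 against the array on the log2 scale. WT H3K9me2 was below that of the repeats but above the array median, at 1.46 ± 0.45, 1.35 ± 0.38 and 2.15 ± 0.49. In 7 of 16 central windows of 2 kb (43.75%) it was at 2-fold or more on all 3 WT arrays, against 7.49% of all windows. Over the 16 central windows of 2 kb the signals correlated at r = 0.96, in windows that share arrays and fragments. Probes at the borders were higher (1620301 in domain 2 at 1.45 and 1093201 in domain 3 at 1.24, both marked). Inside domain 2 there was 1 probe without an f or m mark (1628101) at 0.86, with H3K9me2 of 2.88, 3.29 and 3.96 on the 3 WT arrays. Its Cy3 was 2.03 above the array median on the log2 scale, against −0.99 over the domains. Whether it reports this place alone was not tested. Inside domain 3 a marked probe (1096801) was at 0.95.

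tRNA genes lay at several of the steps between these levels, though not at all of them. Centromere 1 had no tRNA gene within 10 kb of its outer right border and 1 near its left (0.71), and its tRNA genes next to the central domain had medians of 0.36 on the left and 0.42 on the right, below the repeats. The outer left border of centromere 2 held the highest peak on a nuclear chromosome outside its ends, 4260 bp long (1599001 to 1603260), 15 probes and a height of 1.69, over a cluster of 12 tRNA genes with its summit in SPBTRNAGLY.07. The right border held a peak of 1.45 (1646101 to 1648560) over 7 tRNA genes, with its summit in or beside SPBTRNAALA.11. From SPBTRNATYR.02 to SPBTRNAGLU.06 on the left and SPBTRNATYR.03 to SPBTRNAGLU.07 on the right, the tRNA types follow in the same order. Marked probes made up 73.3% of the left peak and 100% of the right. Whether these probes tell the 2 sides apart was not tested. Next to the central domain a single probe by SPBTRNAALA.10 also reached 1.69. Over both outer clusters H3K9me2 was lower than in the repeats, 3.98 ± 0.71 and 3.82 ± 0.65 (n = 3), while Fft3-GFP was higher. At centromere 3, 7 of the 8 tRNA genes near the left border had a value within 300 bp, with a median of 0.99, and the 2 near the right border 0.41 and 0.91. The 45 pericentromeric tRNA genes with a probe ranged from 0.21 to 1.69, with 19 at 2-fold or more, and the 8 placed by their nearest probe in a central domain from −1.03 to −0.37. Array positions were placed on the assembly from unmarked probes away from the centromeres, with a median deviation of 50 to 140 bp between stretches of an arm. The shift applied changed from −710 to 4500 bp across centromere 1, from −870 to −1660 bp across centromere 2 and from 190 to −820 bp across centromere 3. The placement error at the centromeric tRNA genes was not measured and may be larger, so their values at such steep steps are uncertain.

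**Figure D1:**
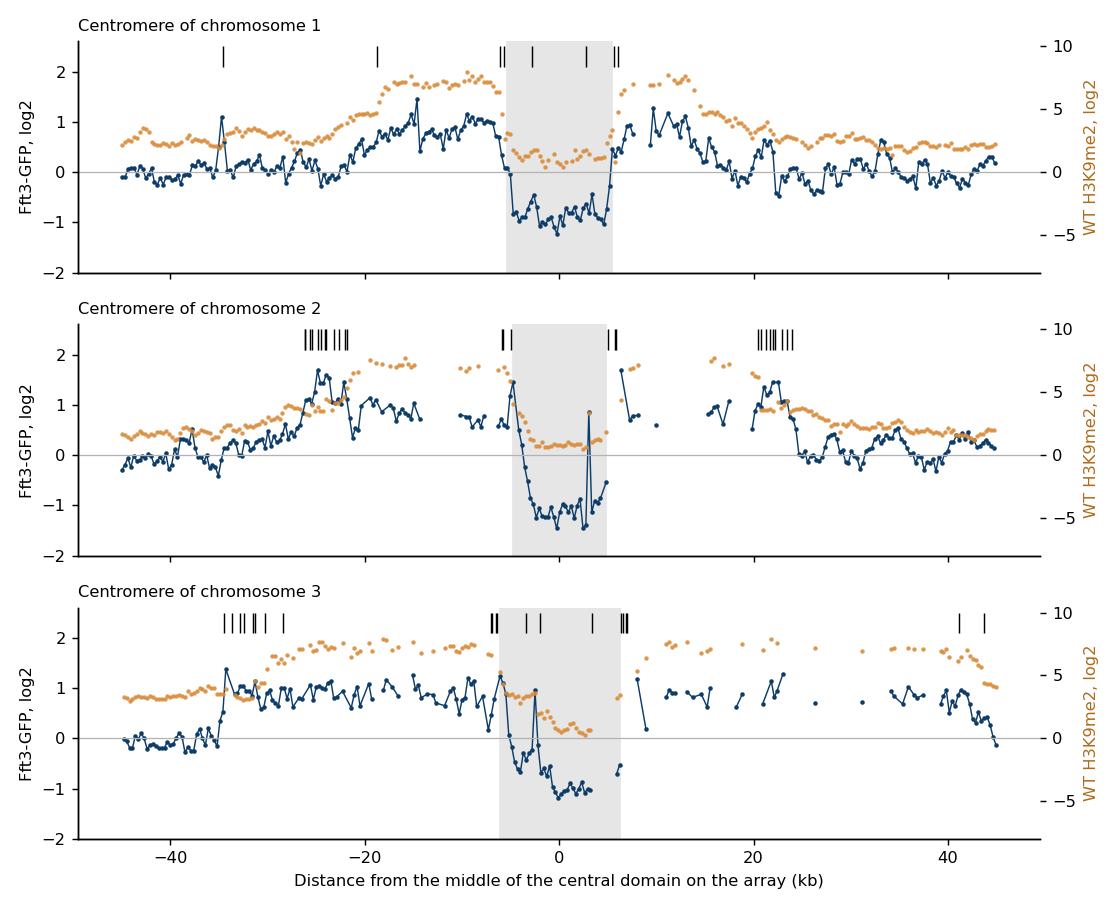
Fft3-GFP (dark line and points, left axis, log2 of ChIP over extract minus the array median, 1 array) and WT H3K9me2 (orange points, right axis, mean of 3 arrays) by distance from the middle of each central domain, with central domains in grey and tRNA genes as ticks at the top. Fft3-GFP lies near 0.85 in the repeats, drops to about −1 in the central domains and reaches 1.69 and 1.45 over the tRNA clusters at the outer borders of centromere 2, where H3K9me2 is already lower, with single probes as high beside its central domain; lines are broken where the array has no probes.

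Subtelomeres carried strong H3K9me2 with little Fft3-GFP. Over the last 50 kb of both ends of chromosomes 1 and 2, H3K9me2 averaged 4.24 ± 0.50 (n = 3) and Fft3-GFP had a median of −0.02 (589 probes), with 2.04% of probes at 2-fold or more. End 1L was at 0.23, 1R at −0.04, 2L at −0.17 and 2R at −0.06. The outermost parts of chromosome 1 were higher: the mean was 0.58 from 0 to 10 kb and 0.60 from 10 to 20 kb at 1L, and 0.72 from 0 to 10 kb at 1R. Each of these ends held 1 peak, of 1.47 at 18601 to 20160, in SPAC212.06C, and of 1.59 at 5566501 to 5568060. Between 30 and 50 kb from the ends Fft3-GFP was −0.04, −0.10, −0.24 and −0.12 at 1L, 1R, 2L and 2R, while H3K9me2 was 3.70 ± 0.31, 4.84 ± 1.88, 2.16 ± 0.19 and 2.28 ± 0.39. Next to the left end of chromosome 3, whose H3K9me2 was 2.47 ± 0.93 over 25 kb, a peak of 1.87 stood at 3001 to 4260 on probes that are all marked.

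**Figure D2:**
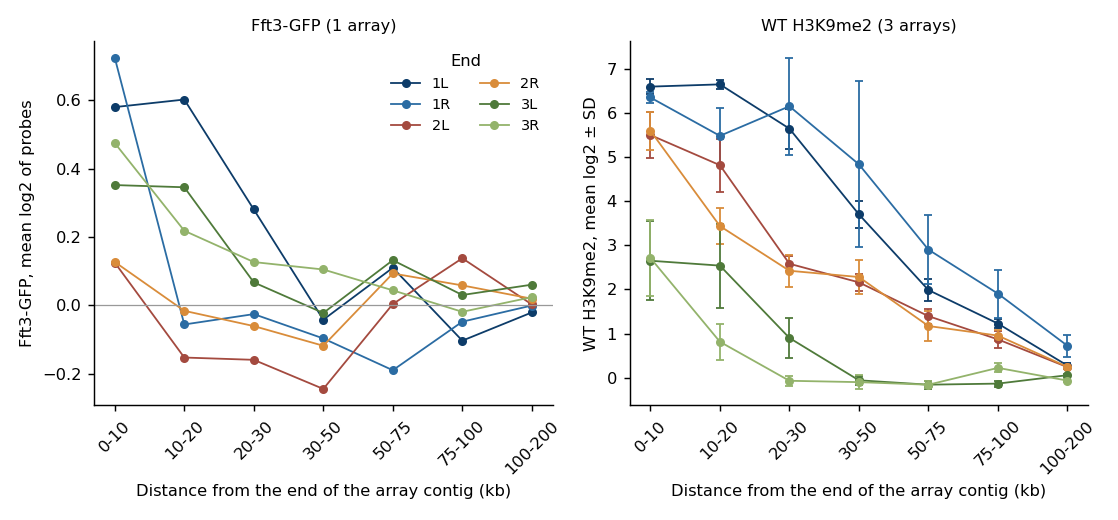
Mean Fft3-GFP of the probes in each distance bin (left, 1 array) and mean WT H3K9me2 with its SD over 3 arrays (right), both as log2 of ChIP over extract minus the array median, against distance from the end of each chromosome's array contig. Fft3-GFP is raised at 1L up to 30 kb and at 1R within 10 kb and is at or below 0 between 30 and 50 kb at the ends of chromosomes 1 and 2, where H3K9me2 is still 2.16 to 4.84.

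The silent mating-type region, which keeps the unused mating-type cassettes, had a Fft3-GFP median of 0.72 (33 probes) with H3K9me2 of 5.17 ± 0.58. The separate mat contig had 0.57 (110 probes, 11 at 2-fold or more) with H3K9me2 of 3.99 ± 0.22 and 1 peak of 1.08 at 5701 to 6360. The mitochondrial contig was at the other extreme, with a median of −3.09 over 61 probes. There the extract channel was 3.43 above the array median on the log2 scale and the ChIP channel only 0.36 above. Mitochondrial DNA has no histones, and its H3K9me2 ratios also differed between arrays, with a mean of −1.30 ± 1.26.

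**Figure D3:**
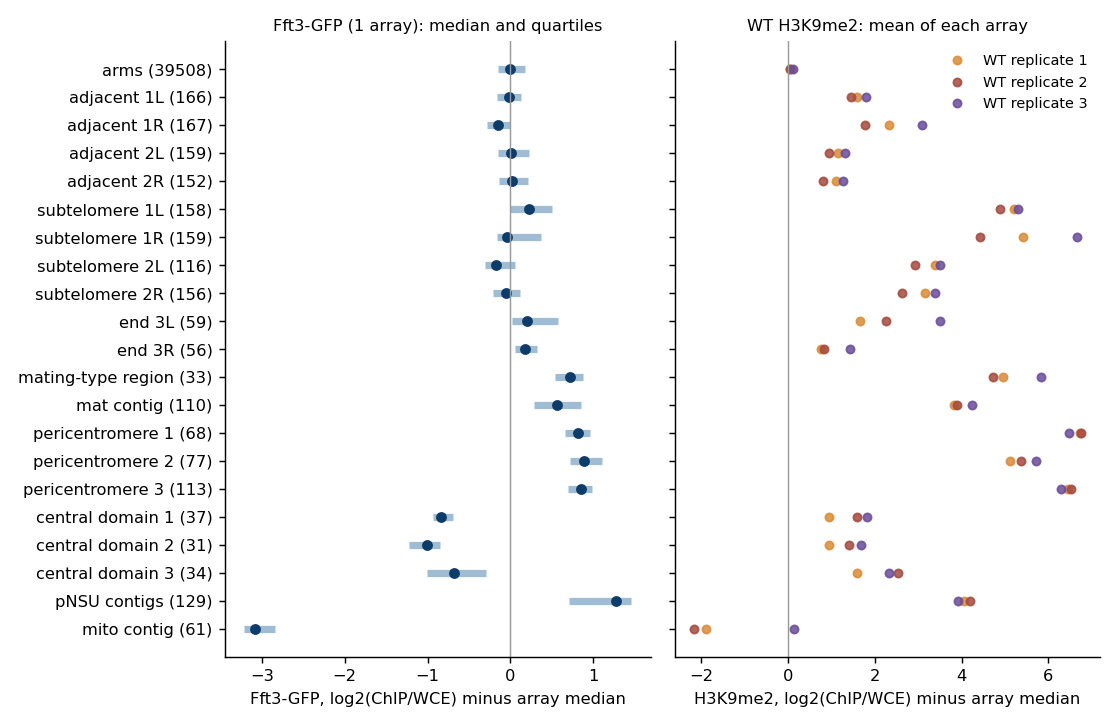
Left, median (points) and quartiles (bars) of Fft3-GFP over the probes of each region, with the number of probes in brackets; right, mean WT H3K9me2 of the same regions on each of 3 arrays; both axes are log2 of ChIP over extract minus the array median. Pericentromeric repeats, mating-type sequences and pNSU contigs are high in both, and the central domains and the mitochondrial contig are low in Fft3-GFP. Subtelomeres, taken as 50 kb each, are high in H3K9me2 with low Fft3-GFP medians. Their outermost 10 kb on chromosome 1 are raised in both, with Fft3-GFP means of 0.58 (1L) and 0.72 (1R).

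On the arms the highest Fft3-GFP lay over a small set of genes, several of them housekeeping genes. Gene levels were means over probes inside the gene, for the 4958 protein-coding genes with at least 2 probes; their median was −0.00, 10 (0.202%) were at 2-fold or more and 133 (2.68%) at 1.5-fold or more. The 10 highest on arms were ubi4 (polyubiquitin, 1.29), tef103 (1.16), sod1 (superoxide dismutase, 1.16), knh3 (1.12), act1 (actin, 1.12), tef101 (1.105), tef102 (1.08), rps27 (a protein of the small ribosomal subunit, 1.06), psu1 (a cell wall protein, 1.02) and pma1 (the plasma membrane proton pump, 0.995). tef101, tef102 and tef103 encode near-identical copies of elongation factor EF1-alpha, so their probes cannot be told apart and they are not separate observations. The 5 lowest were SPAC23H4.05C (−0.56), SPAC6C3.03C (−0.56), SPAC1B2.06 (−0.50), SPAC24B11.14 (−0.45) and SPBC16A3.14 (−0.43).

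The arm peaks sat on some of the same genes. Apart from the genes above, summits lay in or nearest to sum3 (a DEAD-box helicase of translation initiation), SPCC1235.01, fhn1, gar2 (a nucleolar protein of ribosome assembly), knh4, the U5 small nuclear RNA gene snu5, the tRNA gene SPBTRNAPRO.07 and SPBC31A8.02. The ubi4 peak (chromosome 2, 1045201 to 1046460, 5 probes) was the highest of these at 1.479, and act1 followed at 1.46 (1477201 to 1478160). The peak of pma1 was the broadest on an arm, 1860 bp at 2-fold and 5460 bp at 1.5-fold (3867301 to 3872760). WT H3K9me2 over these arm peaks was at least 2-fold in none of 16 and ran from −1.001 ± 0.555 at snu5 to 0.90 ± 0.42 at SPCC1235.01 (n = 3 arrays).

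The lists differed in level, and their counts stand beside 2.68% of all protein-coding genes at 1.5-fold or more and 48.8% above 0. All 7 genes of translation elongation factors were between 0.55 (tef5) and 1.16, with 6 at 1.5-fold or more. Glycolysis and fermentation genes had a median of 0.51 over 12, from tpi1 (triose phosphate isomerase, 0.71), pyk1 (pyruvate kinase, 0.66) and pgk1 (0.61) down to hxk2 (hexokinase, 0.14). The list of ribosomal protein genes was drawn by symbol (rpl, rps or rpp and a digit), and 123 of 141 had at least 2 probes, with a median of 0.42. It also caught 3 genes named for RNase P, rpp1 (−0.14), rpp21 (−0.11) and rpp40 (−0.06). Without them, a choice made after their values were seen, the median over 120 was 0.43; 119 were above 0 and 20 at 1.5-fold or more, led by rps27 (1.06), rps2 (0.90) and rpp203 (0.85), with rpl1603 lowest at −0.05. Genes of membrane transport and cell wall had a median of 0.52 over 5, from pma1 and gas1 (0.72) and bgs4 (0.52) to exg1 (0.39).

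Within other groups the members spread apart. Among histone genes the canonical hta1 (0.85), htb1 (0.82) and hht2 (0.60) were highest, and cnp1, the centromeric H3, was at −0.12 (median 0.48 over 11). Among chaperone genes ssa2 (0.83), sks2 (0.70) and bip1 (0.67) were highest, and hsp16 was lowest at −0.36 (median 0.52 over 9). The cells had been moved to 18 °C, and no array at another temperature carries the Fft3-GFP tag.

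Other lists had medians near that of all genes. Heterochromatin machinery genes had a median of −0.10 over 15, from clr3 (0.06), swi6 (0.02) and mst2 (0.01) to dcr1 (−0.28). Replication genes had −0.06 over 12, from orc2 (0.12), mcm5 (0.08) and mcm3 (0.04) to orc1 (−0.21). The Fun30 family genes themselves were at 0.13 (fft2), 0.09 (fft3) and −0.27 (fft1). Of the meiotic genes silenced by the RNA-binding protein Mmi1 in growing cells, 13 had a median of 0.08, with mei4 at 0.53, ssm4 at 0.21, mug45 at 0.19 and spo5 at −0.11. WT H3K9me2 over mei4 was 4.17, 4.39 and 4.77 on the 3 arrays and over ssm4 3.21, 3.39 and 3.70. The phosphate genes were not among these lists, with a median of 0.50: pho84 (0.55) and tgp1 (0.50) were above pho1 (0.11).

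**Figure D4:**
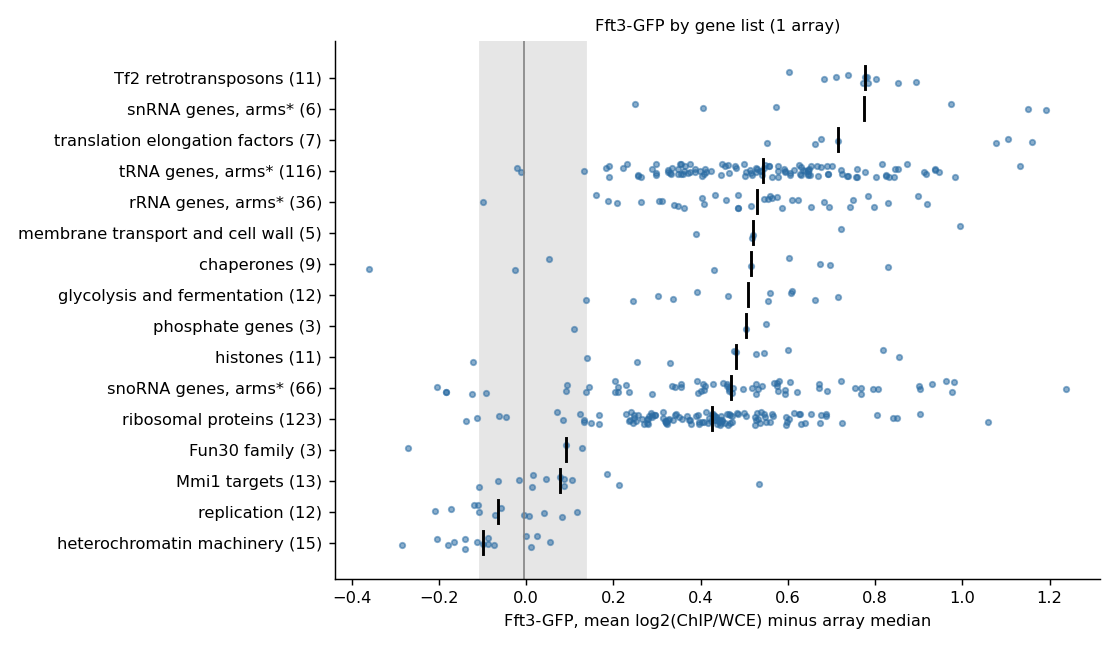
Fft3-GFP of each gene (points, 1 array), the median of each list (bars) and the number of genes; the x axis is the mean log2 of ChIP over extract minus the array median, over probes in the gene or, for lists with an asterisk, over probes within 300 bp. The grey band is the quartile range of all 4958 protein-coding genes, around −0.00; the medians of the Tf2, small RNA, translation, glycolysis, chaperone and histone lists lie to its right, with single members inside or left of it (hxk2 at 0.14, snR101 at −0.20), and the medians of the heterochromatin machinery, replication, Mmi1 target and Fun30 lists lie inside it.

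Short RNA genes were measured over probes within 300 bp of their middle, and on that scale 3.13% of pairs of neighbouring arm probes were at 1.5-fold or more and 0.251% at 2-fold or more. Of 116 arm tRNA genes, 114 were above 0, 50 at 1.5-fold or more and 1 at 2-fold or more, with a median of 0.54. The median fell with distance from the gene, from 0.55 at the gene to 0.20 at 0.6 kb and 0.09 at 0.9 kb. The 17 arm tRNA genes with another within 1 kb had a median of 0.65 and the 99 alone 0.53, a difference within their quartile ranges. SPBTRNAPRO.07, printed above, was highest on an arm at 1.13. Small nuclear RNA genes had a median of 0.77 over 6, with snu2 (U2, 1.19), snu5 (U5, 1.15) and snu1 (U1, 0.97) highest and snu6 (U6, 0.25) lowest. Small nucleolar RNA genes had 0.47 over 66, led by snu32 (1.24), snoZ5 (0.98) and snu3 (0.98), with snR101 at −0.20. The 36 rRNA genes on arms had 0.53.

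Probes near the letters of the B box had higher values within 1 kb of tRNA genes and not elsewhere. Of 171 tRNA genes, 131 held GTTCGANNC on their own strand. On either strand, with overlapping matches each counted, it lay within 300 bp of 3.08% of arm probes. Within 1 kb of a tRNA gene the median was 0.52 over 181 probes with the motif and 0.21 over 550 without. Most tRNA genes hold the motif, so probes within 300 bp of it tend to lie closest to the gene, where values were highest. This contrast therefore cannot separate the motif from distance to the gene. Over 1 kb from any tRNA gene it was −0.01 over 1035 probes with the motif and −0.01 over 37742 without. A match is only a match of letters.

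Tf2 retrotransposons were raised, at a level near that of marked probes in general. Their median was 0.78, and that of all 524 probes marked m was 0.73. A run of 3 probes in Tf2-5 was marked throughout. The part of the probe class in the Tf2 level was not tested. All 11 Tf2 elements with at least 2 probes were at 1.5-fold or more, from Tf2-6 (0.60) to Tf2-9 (0.80), Tf2-13 (0.85) and Tf2-3 (0.89). The copies are near-identical, so these are not 11 independent levels. WT H3K9me2 over them differed between arrays, with medians of 0.54, 0.70 and 1.997. Long terminal repeats over 1 kb from tRNA and Tf2 genes had 0.26 over 165, within 300 bp.

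Along arm genes the median differed little from start to end. The median over all 4979 arm genes was −0.05 in the 300 bp upstream, −0.06 in the first 20% of the gene, 0.01 in the middle 20%, 0.03 in the last 20% and 0.05 in the 300 bp downstream. These steps are well within the quartile range of any position (−0.19 to 0.09 in the first 20%). Over ribosomal protein genes the medians were 0.31 upstream, 0.28 in the first 20% and 0.48 in the last. Gaps between convergent genes had a median of 0.21 (260 gaps, quartiles 0.05 and 0.42), between tandem genes 0.01 (1666) and between divergent genes −0.06 (1054, quartiles −0.18 and 0.11). Base composition had no single trend with these values: arm probes in the lowest, middle and highest of 5 GC classes had medians of 0.02, −0.05 and 0.10, and r with the array's own extract signal was 0.19 over 39508 probes. The part of extract signal and GC in the gene levels was not tested.

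Fft3-GFP and WT H3K9me2 went together in some heterochromatin and not along the arms. Across 2 kb windows Pearson's r was 0.29 and Spearman's rho 0.09 over 6224 windows, 0.08 and 0.07 over 5905 arm windows, and 0.57 and 0.50 over the 309 windows of domains and nuclear contigs. Within single kinds of domain Pearson's r was 0.64 over 92 subtelomeric windows, 0.95 over 21 pNSU windows, 0.58 over 24 mating-type windows, −0.10 over 37 pericentromeric windows and −0.35 over the 98 windows next to the subtelomeres. With the WT arrays taken singly, r on the arms was 0.02, 0.03 and 0.16. These are descriptions of windows that share arrays and neighbours. Windows with H3K9me2 under 0 had a Fft3-GFP median of −0.01 (3418 windows), those from 2 to 4 one of 0.01 (180), those from 4 to 6 0.33 (69) and those of 6 and over 0.78 (52).

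Of the 6224 windows, 28 (0.45%) were at 2-fold or more in Fft3-GFP, 182 (2.92%) at 1.5-fold or more, and 466 (7.49%) at 2-fold or more in H3K9me2 on all 3 WT arrays. Of the 28, 24 were marked by H3K9me2 (85.7%), which is 5.15% of the marked windows; 16 of the 28 were pNSU windows. Of the 182, 84 (46.2%) were marked, against 101 on arms of which 5 (4.95%) were marked, close to the 3.59% of all arm windows. Those 5 held the mei4 and act1 stretch, mat1 with its neighbour and mae2, named here after their values were seen. H3K9me2 over mat1-Mc was 5.61, 5.56 and 6.24 over 2 probes, as high as in the silent mating-type region. Whether these probes report mat1 alone was not tested. Outside the arms, 36 of 37 pericentromeric windows and 8 of 92 subtelomeric windows were at 1.5-fold or more in Fft3-GFP, although all of both sets were marked.

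**Figure D5:**
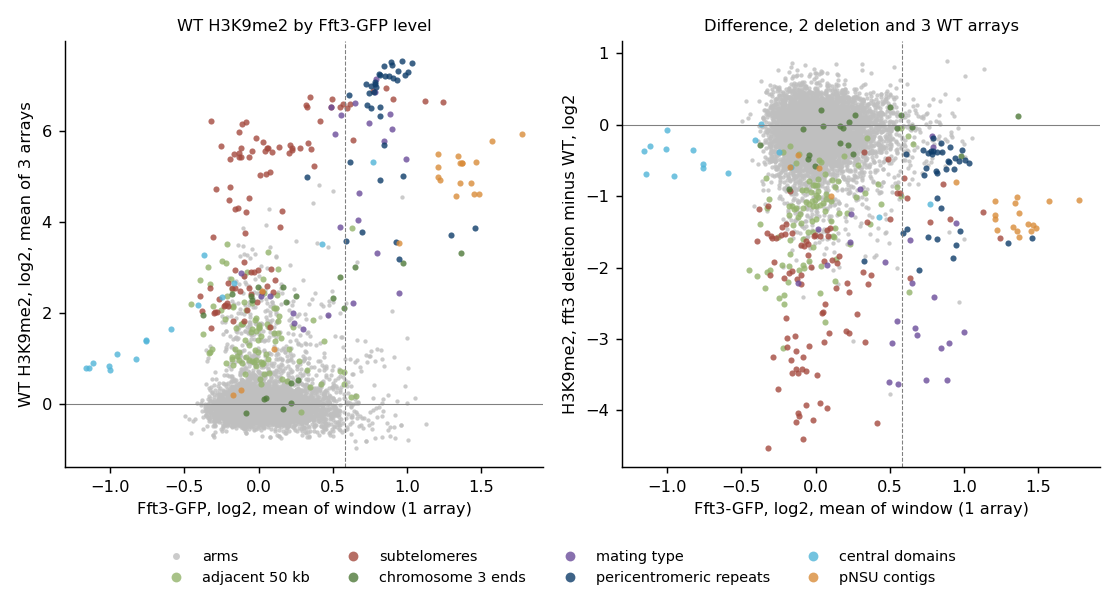
Each point is a 2 kb window; the x axis is Fft3-GFP (log2, 1 array, dashed line at 1.5-fold), the y axis is WT H3K9me2 (left, log2, mean of 3 arrays) and the difference of H3K9me2 between 2 fft3∆ and 3 WT arrays (right, log2). Pericentromeric and pNSU windows lie high in both signals; the largest falls of H3K9me2 lie in subtelomeric windows with Fft3-GFP near 0 and in mating-type windows, and arm windows past the dashed line scatter around 0.

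The H3K9me2 arrays also gave a readout that the Fft3-GFP array did not supply, namely the H3K9me2 level without fft3 in windows that were high on the Fft3-GFP array. In limma's test over all 6224 windows with Benjamini-Hochberg adjustment, 333 windows (5.35%) were lower in fft3∆ and 7 (0.112%) higher at adjusted p under 0.05. Among the 182 windows at 1.5-fold or more in Fft3-GFP, 30 (16.5%) were lower and 1 higher. Among the 28 at 2-fold or more, 15 (53.6%) were lower, 13 of them on pNSU contigs. The 5.35% of all windows, most of them on arms, is no like background for these counts. Over whole domains, at any Fft3-GFP level, 75% of 92 subtelomeric, 71.4% of 21 pNSU and 62.2% of 98 windows next to the subtelomeres were lower. The share was 24.3% of 37 pericentromeric and 12.5% of 24 mating-type windows, and 0 in central domains and at chromosome 3 ends. On the arms 2 of 101 Fft3-GFP windows (1.98%) were lower, against 2.98% of all arm windows. The total of 340 was 124, 212 and 158 without WT replicate 1, 2 or 3 and 833 without fft3∆ replicate 2, and the 30 windows were 8, 17, 19 and 46, and 14 without fft3∆ replicate 3.

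The fall did not follow the Fft3-GFP level from one domain to the next. pNSU windows at 1.5-fold or more fell in 14 of 17, by a median of 1.32 on the log2 scale, from 5.16, 5.24 and 4.76 on the WT arrays to 3.90 and 3.66 on the fft3∆ arrays. Both fft3∆ arrays lay below all WT arrays at all 11 pNSU peaks. Pericentromeric windows at 1.5-fold or more fell in 8 of 36, with a median of −0.57, from 6.24, 6.37 and 6.24 to 5.67 and 5.24. Subtelomeric windows at 1.5-fold or more fell in 4 of 8, with a median of −1.27. Those under 1.5-fold fell in 65 of 84, with a median of −2.13, from 4.24, 3.61 and 4.78 to 1.63 and 2.03. Over the mating-type sequences the fft3∆ arrays disagreed: WT windows were at 4.20, 4.18 and 4.70, and fft3∆ windows at 3.46 and 0.72. No test compared the domains with each other.

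At the tRNA clusters of centromere 2 H3K9me2 was 3.39, 3.79 and 4.77 in WT and 2.85 and 1.81 in fft3∆ on the left, and 3.25, 3.68 and 4.53 against 2.75 and 1.45 on the right, so the groups did not overlap. The 2 clusters hold the same tRNA types in the same order on mostly marked probes, so they may not be separate observations. At the other 4 pericentromeric peaks the differences ran from −0.64 to −0.42 and the groups overlapped. Of the 16 arm peaks, both fft3∆ arrays lay below all WT arrays at ubi4 and act1, above them at pma1 and tef101, and between or across them at the other 12. The values at ubi4, act1, pma1 and tef101 rested on 5, 2, 4 and 2 H3K9me2 probes. The share of all windows with such separation was not computed. These counts, and the separation at the pNSU and tRNA cluster peaks, therefore have no background beside them. act1, which lies next to the H3K9me2-marked mei4, went from 0.67, 0.80 and 0.74 to −0.33 and −0.64. The window from 1476001 to 1478000, which holds parts of both mei4 and act1, fell by 1.596 on the log2 scale (limma, adjusted p = 0.013). This call was lost without WT replicate 3 (adjusted p = 0.051) and held without each of the other 4 arrays (adjusted p = 0.0087 to 0.041).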

How the data were processed

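The 7 arrays are 2-colour Agilent tiling arrays with 60-nt probes about every 300 bp; the array with the UV21 label was not used. Per the file headers, the deposited scanner files hold processed intensity values of both channels and a log10 ratio made by Agilent Feature Extraction (12.0.3.1 for the Fft3-GFP array; 10.7.3.1, 11.5.1.1 and 12.0.3.1 for the others). The deposited value table holds a linear ratio of the same arrays, with r = 1 to log2 of the processed signals and a median of 0.971 for Fft3-GFP; how it was centred is not given in the sources used here. Per the labels, both DNAs went through a random-primed amplification, and ChIP DNA carried Cy5 on every array. Series 3 arrays were read with extraction protocol 1105 and the rest with 1200.

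Here log2(Cy5/Cy3) of the processed intensities was centred on each array's median, without loess or quantile scaling, after non-uniform spots and spots not well above background in Cy3 were left out (35238 probes kept on all 5 H3K9me2 arrays; 1573 spots of WT replicate 3 were saturated). Genes came from RefSeq (ASM294v3). The array's build is not named, so array positions are printed as given and each arm was shifted onto the assembly where GC content best tracked the Cy3 signal (7 stretches, r = 0.27 to 0.42). Windows of 2 kb needed 3 probes. H3K9me2 was compared with limma 3.58.1 in R 4.3.3 and tested on simulated data, other values with Python 3.11.15. Named genes were the 10 highest and 5 lowest on arms and, per list, the 3 highest and the lowest; peaks were the 10 highest, 5 widest and 3 highest per domain. The members and lists were chosen with earlier results of these data known. Array counts limit precision, and intervals were not given. The files hold median and not mean spot signals, so normexp (offset 50) was run on medians.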

Additional observations from a re-analysis of the deposited data

How the results depend on the processing

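Of 277 values recomputed under other settings, 239 stayed within the spread over probes, peaks or WT arrays, or within 1.5 times for counts. No regional or gene-list median that was larger than its spread changed sign. Correlations were not part of that sign check. Of the regional medians only that of the mitochondrial contig moved further, to −3.65 with normexp. The number of peaks depended on its definition: 216 at 1.5-fold, 132 at 3 robust SDs, 65 and 17 with runs of 2 and 5 probes (median width 2460 bp with 5), 85 with normexp and 13 on probes without an f or m mark. With normexp, 256 protein-coding genes were at 1.5-fold or more, the Tf2 median was 0.61, and r across windows was 0.21 in all and −0.0052 on the arms, where its sign changed. The overall r was 0.32 with no probe filter, 0.23 and 0.37 with 1 and 5 kb windows, and 0.10 on unmarked probes, where r over domains was 0.41. Windows high in Fft3-GFP numbered 55 with normexp, 182 at 1.5-fold for both (90 also marked, 11 of them on arms) and 4 on unmarked probes (1 marked). The cause of these moves was not tested.

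H3K9me2 windows called in fft3∆ numbered 124 to 833 when 1 array was left out, with 8 to 46 of them lower among Fft3-GFP windows at 1.5-fold and 0 to 9 on arms. Arm windows lower were 1 with extraction protocol and scanner as a term and 6 with normexp. Replicate block: with the series number as a term 263 windows were called, all of them lower. The differences between series 2 and 3 correlated at r = −0.03 between WT and fft3∆. That r alone cannot tell whether samples of the same series number were paired. The series 3 arrays of both groups shared extraction protocol 1105. Probe signal on the Fft3-GFP array was well above background, which does not show how specific the probes are. A second array and an untagged strain were not analysed here.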
